A study of Arabidopsis thaliana with 36 samples.

Results

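The nuclear genes of the light-harvesting antennae and of both photosystems were followed in mRNA from whole 4-day-old seedlings of Arabidopsis thaliana. The members were chosen by gene code from a fixed list of 40 codes, out of 33619 rows in the deposited table. They comprise 4 LHCA genes (the antenna of photosystem I), 14 LHCB genes (the antenna of photosystem II), 12 genes for subunits of photosystem I and 10 for subunits of photosystem II. All 40 were listed in every one of the 36 libraries and passed the filter on low values in all 3 experiments.

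There were 12 groups, each of 3 libraries that the submitters describe as biological replicates. For the ethylene experiment, Col-0 wild type was raised in liquid medium containing 0.5% glucose and then given 10 µM ACC, the direct precursor of ethylene, for either 2 h or 4 h, beside mock-treated seedlings of the same times. For the glucose-TOR experiment, plants raised for 4 days with no glucose were given 15 mM glucose for 2 h or left without it. The genotypes were Col-0 wild type and a line whose genotype is labelled XVE-TOR RNAi. XVE is an estradiol-inducible system and TOR is a growth-promoting kinase. The labels do not give the inducer, so the line is called tor here after its label. The glucose-HXK1 experiment applied the same glucose treatment to wild-type Ler and to gin2, a mutant of the hexokinase and glucose sensor HXK1. Whole seedlings were used throughout, so root and shoot tissue both contribute to each library. Values are RPM, reads per 1000000 reads as deposited by the authors, and log2 changes come from a limma fit to log2(RPM + 1) and carry standard errors (SE). Because the material is bulk tissue, fewer green cells and less RNA per green cell cannot be told apart.

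Light-harvesting proteins bind chlorophyll and pass excitation energy to the reaction centres, whose central proteins are encoded in the chloroplast genome. LHCB1, LHCB2 and LHCB3 form the trimers of the major antenna LHCII, while LHCB4, LHCB5 and LHCB6 are the minor antennae that join those trimers to photosystem II. The nuclear genes followed here are expressed in green tissue, are induced by light, and are known to be activated by the paired regulators GLK1 and GLK2 and repressed by sugar.

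Several members are near-identical copies, which bears on how their reads were assigned. The LHCB1.1 and LHCB1.3 coding sequences were identical at 96.1% of aligned bases, and those of LHCB2.1 and LHCB2.2 at 96.6%. Between 10.6% and 20.5% of the 50-base windows in the 5 LHCB1 transcripts occurred in another member, as did 22.7% for LHCB2.1 and 28.2% for LHCB2.2. How reads shared by several genes were assigned is not given in the sources used here, so the split between these copies is uncertain. The LHCB1.4 and LHCB1.5 start sites lie 1039 bases apart on chromosome 2 and point away from each other. LHCB1.1, LHCB1.2 and LHCB1.3 lie together on chromosome 1.

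The 250 bases before the annotated start are shown for 4 members, from the RefSeq sequence of TAIR10.1, matched by gene code. LHCB1.4 and LHCB1.5 are shown because these neighbours had the 2 largest falls after ACC and were both higher in tor than in Col-0. LHCA4 was lower with glucose in all 4 genotypes. LHCB6 was lower after ACC and higher with glucose in Col-0. Capitals mark any of 6 motifs found on either strand: the G-box CACGTG, the I-box GATAAG, the sugar-associated motif TATCCA, the evening element AAATATCT, the telo-box AAACCCTA, and CCAATC, a motif reported near genes that GLK1 and GLK2 activate.
LHCB1.4, chr2:14524357-14524606, plus strand: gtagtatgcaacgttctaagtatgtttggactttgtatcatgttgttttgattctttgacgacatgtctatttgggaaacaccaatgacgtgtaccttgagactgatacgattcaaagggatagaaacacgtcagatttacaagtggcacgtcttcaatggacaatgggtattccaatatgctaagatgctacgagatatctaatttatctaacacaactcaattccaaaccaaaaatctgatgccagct
LHCB1.5, chr2:14523569-14523818, minus strand: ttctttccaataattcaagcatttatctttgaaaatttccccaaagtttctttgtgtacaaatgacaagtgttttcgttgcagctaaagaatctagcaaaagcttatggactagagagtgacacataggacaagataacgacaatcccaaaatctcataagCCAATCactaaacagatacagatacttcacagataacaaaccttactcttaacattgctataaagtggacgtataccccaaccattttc
LHCA4, chr3:17495034-17495283, minus strand: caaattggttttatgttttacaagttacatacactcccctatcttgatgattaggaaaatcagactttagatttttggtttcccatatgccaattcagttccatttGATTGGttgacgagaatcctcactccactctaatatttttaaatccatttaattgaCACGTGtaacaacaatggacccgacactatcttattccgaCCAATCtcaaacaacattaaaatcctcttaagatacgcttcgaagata
LHCB6, chr1:5447881-5448130, minus strand: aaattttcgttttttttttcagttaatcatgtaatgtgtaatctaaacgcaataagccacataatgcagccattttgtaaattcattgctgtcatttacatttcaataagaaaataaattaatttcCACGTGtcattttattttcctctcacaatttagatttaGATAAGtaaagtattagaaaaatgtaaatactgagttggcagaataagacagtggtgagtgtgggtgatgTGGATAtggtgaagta

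No motif of the 6 was present in the LHCB1.4 window, while the LHCB1.5 window held CCAATC. The LHCA4 window held a G-box and 2 copies of CCAATC, and the LHCB6 window held a G-box, an I-box and TATCCA. The GLK-associated CCAATC was found in 11 of the 40 members, in 3 LHCA, 7 LHCB, 1 photosystem II and 0 photosystem I genes, and in 10.2% of 27443 promoters of the same length. The G-box was found in 8 of 40, against 6.49% of all promoters. The I-box was found in 9 of 40, against 12.3%, and TATCCA in 16 of 40, against 13.6%. TATCCA overlapped an I-box in 1 member, PSAK. Neither the evening element nor the telo-box was found in any of the 40, against 4.79% and 4.49% of promoters. These matches describe the letters of the windows and do not show binding.

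Depth on listed genes was 16.4 to 21.5 M reads (M, 1000000) per library for ethylene, 13.3 to 21.9 M for glucose-TOR and 5.64 to 13.6 M for glucose-HXK1, counted there over the genes listed for Ler. In the last of these, 26.8% to 54.3% of the RPM total of Ler libraries and 13.0% to 18.0% of that of gin2 libraries lay on genes that the table does not list. TOR was at 223 to 224 RPM in tor without glucose and 109.9 to 120.2 RPM in Col-0, so the libraries labelled tor were not lower in TOR RPM. HXK1 was at 13.7 to 15.5 RPM in gin2 and 21.7 to 40.4 RPM in Ler without glucose. 1 of the 3 ACC 2 h libraries, replicate 3, stood apart for many members, and its values are given beside the ACC results.

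Members ranged widely in level. In mock-treated seedlings at 2 h, LHCB1.3 led with 6463 ± 509 RPM per kilobase of transcript (mean ± SD, n = 3), followed by PSBR at 2556 ± 177 and PSBO1 at 2009 ± 200.4 RPM per kilobase. The libraries of LHCB1.3 did not overlap with those of PSBR, and those of PSBR did not overlap with those of PSBO1. PSBR and PSBO1 encode subunits of the oxygen-evolving side of photosystem II. The lowest members were LHCB4.3, a rarer form of the minor antenna LHCB4, at 56.4 ± 9.14 RPM per kilobase, and LHCB2.3 at 11.1 ± 2.83 RPM per kilobase. In tor without glucose the order differed at the top, with PSBR at 4278 ± 477, LHCB1.3 at 4183 ± 632, LHCB1.5 at 3458 ± 562 and LHCB1.4 at 2487 ± 420.3 RPM per kilobase. The ranges of neighbours in this second order overlapped.

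The members together held 4.58 ± 0.294% of all RPM in mock libraries at 2 h. In the ethylene experiment the antenna share of RPM was 2.33, 2.25 and 2.15% in the mock libraries at 4 h and 1.49, 1.73 and 1.64% after 4 h of ACC. The ACC libraries were all lower, with no overlap. Photosystem I genes held 0.808 ± 0.0360% and 0.660 ± 0.0206%, and photosystem II genes 1.19 ± 0.0597% and 0.906 ± 0.0612%. The summed antenna RPM was 1.13 ± 0.0290 times the summed photosystem RPM in mock and 1.03 ± 0.0248 times in ACC at 4 h. With glucose this ratio went from 0.971 ± 0.135 to 0.755 ± 0.0315 in Col-0, from 1.08 ± 0.0191 to 1.05 ± 0.103 in tor, from 1.04 ± 0.164 to 0.779 ± 0.103 in Ler and from 0.697 ± 0.0422 to 0.516 ± 0.0219 in gin2. The libraries with and without glucose did not overlap in Col-0 or gin2, and overlapped in tor and Ler. Sums are weighted to abundant genes such as LHCB1.3. This ratio therefore does not describe each antenna gene, and some rose with glucose in Col-0. The ratio of photosystem II to photosystem I RPM was 2.31 ± 0.0662 in Col-0 without glucose and 1.49 ± 0.0735 in tor without glucose. These did not overlap. The sums are descriptions and were not tested, and they are plotted by library over the RPM of listed nuclear genes in place of all RPM.

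**Figure D1:**
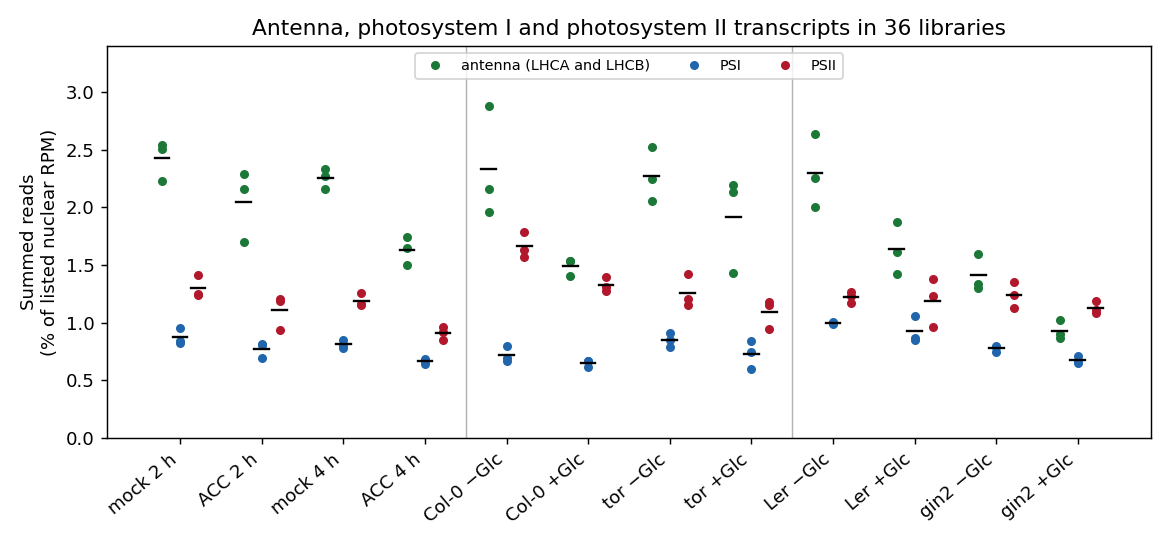
Summed share of the listed nuclear RPM (percent, vertical axis) held by antenna, photosystem I and photosystem II genes in each of the 12 groups; dots are libraries and bars are means of 3. The antenna dots after 4 h of ACC lie below those of the mock at 4 h, and the antenna dots of Col-0 with glucose lie below those without glucose.

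After 4 h of ACC, 25 of the 40 members fell and 0 rose, where 8.88% of all genes were called lower and 10.5% higher. A gene was called at a Benjamini-Hochberg adjusted p below 0.05. The falls comprised 11 of 14 LHCB, 7 of 10 photosystem II, 6 of 12 photosystem I and 1 of 4 LHCA genes. The median log2 change was -0.74 over the LHCB genes, -0.41 over photosystem II genes, -0.29 over photosystem I genes and -0.23 over LHCA genes, beside 0.04 over all genes tested. Without the ACC 4 h library of replicate 1, 15 members were called.

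Among LHCII genes, LHCB1.5 (AT2G34420) stood at 1059, 993 and 881 RPM in the 3 mock libraries and 261, 410.4 and 286 RPM after 4 h of ACC. Every ACC library was below every mock library. On the log2 scale LHCB1.5 fell by 1.64 ± 0.27 (adjusted p = 0.000976). Its neighbour LHCB1.4 (AT2G34430) stood at 252, 239 and 183 RPM and 74.0, 102 and 68.8 RPM, again with no overlap, and fell by 1.46 ± 0.21 (adjusted p = 0.000436). LHCB1.3 (AT1G29930), the most abundant copy, stood at 7639, 7087 and 6931 RPM and 4065, 4819 and 4335 RPM and fell by 0.71 ± 0.18 (adjusted p = 0.0127). The mock and ACC libraries of LHCB1.3 were apart as well. LHCB2.1 and LHCB2.2 fell by 1.04 ± 0.17 and 0.97 ± 0.13, with mock libraries between them at 100.2 to 126 RPM and ACC libraries at 41.6 to 65.8 RPM. LHCB3, the remaining LHCII type, was at 985, 955 and 915 RPM in mock and 826, 911 and 898 RPM in ACC, with a log2 change of -0.12 ± 0.07, adjusted p = 0.257.

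The minor antenna genes divided. LHCB6 (AT1G15820) stood at 825, 874 and 804 RPM in mock and 286, 434 and 376 RPM in ACC, without overlap, and fell by 1.21 ± 0.23 (adjusted p = 0.00302). LHCB4.1 and LHCB4.2 fell by 0.76 ± 0.15 and 0.43 ± 0.11. LHCB5 showed a log2 change of 0.05 ± 0.06, adjusted p = 0.613, with 2291, 2291 and 2225 RPM in mock and 2339, 2278 and 2438 RPM in ACC. Its groups overlapped. LHCB5 was also the one member that passed the threshold in 0 of the 14 comparisons of the main fit. Without the Ler library without glucose of replicate 3, LHCB5 was called lower with glucose in Ler (-1.20). Without the tor library with glucose of replicate 2, it was called lower with glucose in tor (-0.42). Of the LHCA genes, LHCA1 fell by 0.29 ± 0.09 (adjusted p = 0.0355), and LHCA3 had a log2 change of 0.04 ± 0.07, adjusted p = 0.767.

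In photosystem I, PSAH1 (AT3G16140) had the largest fall. It encodes a subunit at which LHCII can dock, and stood at 269, 279.9 and 274 RPM in mock and 98.8, 121 and 110.3 RPM in ACC. All ACC libraries were lower, and PSAH1 fell by 1.32 ± 0.26 (adjusted p = 0.00332). Its copy PSAH2 was at 409, 421 and 396 RPM in mock and 393, 368 and 405 RPM in ACC, with a log2 change of -0.07 ± 0.06, adjusted p = 0.429. The PSAH2 groups overlapped, and the ratio of PSAH1 to PSAH2 RPM was 0.672 ± 0.0195 in mock and 0.284 ± 0.0400 after ACC. PSAE1 and PSAE2, copies of a subunit near the ferredoxin-binding site, fell by 0.76 ± 0.16 and 0.76 ± 0.17. PSAL fell by 0.62 ± 0.15, PSAD1 by 0.54 and PSAK by 0.40. The other 6 photosystem I genes, PSAD2, PSAF, PSAG, PSAH2, PSAN and PSAO, ranged from -0.19 to 0.07 and did not pass the test.

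In photosystem II, both copies of PSBO, which stabilises the manganese cluster that oxidises water, were lower. PSBO2 (AT3G50820) stood at 689, 615 and 629.7 RPM in mock and 353, 446 and 408 RPM in ACC and fell by 0.68 ± 0.12 (adjusted p = 0.00153). PSBO1 (AT5G66570) stood at 3045, 2577 and 2741 RPM and 1748, 2137 and 1957 RPM and fell by 0.52 ± 0.13 (adjusted p = 0.0165). Neither copy had overlapping groups. PSBR fell by 0.68 ± 0.16, PSBY by 0.54 ± 0.12 and PSBW by 0.50 ± 0.11. PSBS, the sensor for dissipating excess energy as heat, had a small fall of 0.19 ± 0.06 (adjusted p = 0.0431). Of the PSBQ pair, PSBQ1 fell by 0.32 ± 0.08 and PSBQ2 had a log2 change of 0.01 ± 0.07, adjusted p = 0.969. PSBP1 and PSBX had values of -0.22 ± 0.09 and -0.10 ± 0.07 and were not called.

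**Figure D2:**
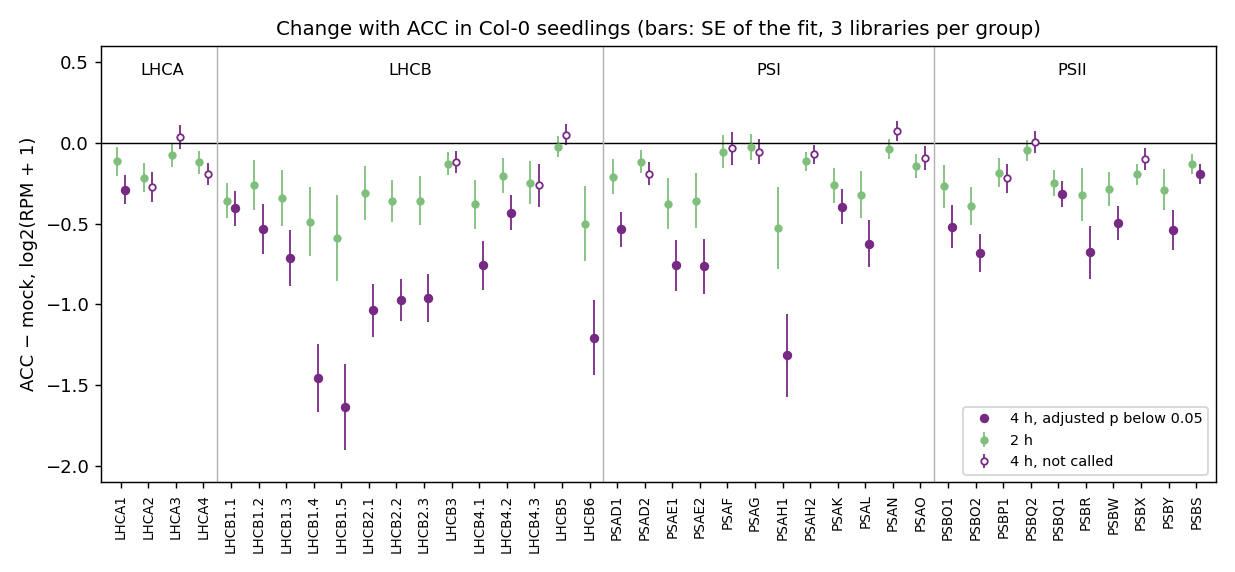
Log2 change from mock to ACC (vertical axis, with SE) for the 40 members, along the horizontal axis by class; green marks 2 h, where no member was called, and purple 4 h, filled where a gene was called and open where it was not. At 4 h the filled points reach -1.64 for LHCB1.5, while LHCB5, LHCA3, PSAN and PSBQ2 lie near 0.

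At 2 h of ACC, 0 members were called by limma, where 9.25% of all genes were called. All 40 had a negative log2 change, with a median of -0.26 beside 0.03 over all genes. At an unadjusted p below 0.05, 17 were lower and 0 higher, and at the adjusted threshold edgeR called 1 and DESeq2 called 4 lower. Shares of all genes at the unadjusted threshold, or in these other fits, are not given here or below. Such counts therefore do not set the members apart from other genes. The ACC 2 h library of replicate 3 bears on this. PSAH1 stood at 276, 276 and 109 RPM in the ACC libraries at 2 h, LHCB6 at 801, 849 and 391 RPM and LHCB1.3 at 7284, 7745 and 4339.8 RPM. In each, the first 2 libraries were close to the mock at 2 h, 309, 293 and 277 RPM for PSAH1, and replicate 3 lay near the ACC libraries of 4 h. Of the 25 members that fell at 4 h, replicate 3 was the lowest of the ACC 2 h libraries in 24, and in 18 it was at or below the highest ACC 4 h library. Of the other 15 members these counts were 7 and 7. The 25 were chosen by their fall in the same ACC 4 h libraries, so these counts are descriptions and no test. Whether replicate 3 stood apart over all genes is not given.

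The difference between the ACC effects of 4 h and 2 h was called for 0 members by limma, edgeR and DESeq2, where 0.036% of all genes were called. At an unadjusted p below 0.05, 6 members had a negative difference (4 h minus 2 h). Without the ACC 2 h library of replicate 3, the difference was called for 11 members, all negative: LHCB1.3, LHCB1.5, LHCB2.2, LHCB4.1, LHCB6, PSAD1, PSAE1, PSAE2, PSAH1, PSAL and PSBR. The difference was then -1.45 for LHCB1.5, -1.23 for PSAH1 and -1.07 for LHCB6 on the log2 scale, and 0 members were called at 2 h. That library was singled out by its member values, so these calls are no independent test. Without the ACC 2 h library of replicate 2, LHCB1.1 and PSBO2 were called at 2 h. Between the mock libraries of 4 h and 2 h, 0 members were called by limma, edgeR or DESeq2, where 0.0566% of all genes were, and 2 were lower at an unadjusted p below 0.05.

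Other photosynthesis genes were counted beside the members at 4 h of ACC, where 8.88% of all genes fell and 10.5% rose. The lower count of chlorophyll synthesis genes lay near that share. Of 22 genes for chlorophyll synthesis, 2 fell and 0 rose, namely CHLM (-0.44) and CAO (-0.40), which makes chlorophyll b. Of 13 genes for electron carriers and the ATP synthase, 4 fell and 0 rose, with FD1, a ferredoxin, at -0.75 and PETE1, a plastocyanin, at -0.51. Rare antenna and related proteins had 2 higher and 2 lower of 12, and antenna targeting and assembly factors 2 higher and 2 lower of 11. Of 8 photosystem genes of the chloroplast genome, psbE was higher. Among 20 regulators, 2 rose and 5 fell. GLK1 fell by 0.54 ± 0.10 and GLK2 by 0.50 ± 0.11, and PIF3, a light-labile repressor, rose by 1.43 ± 0.10. At 2 h the values were -0.82 ± 0.10, adjusted p = 8.99e-05 for GLK1 and -0.48 ± 0.11, adjusted p = 0.0105 for GLK2, both called.

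Markers of other tissue were also counted at 4 h of ACC, where 10.5% of all genes rose and 8.88% fell. Of 9 root markers, 1 rose and 6 fell, and their summed level was 4257 to 4903 RPM in mock and 3309 to 3783 RPM in ACC. Of 7 markers of shoot epidermis and meristem, 0 rose and 3 fell, with sums of 424 to 436 RPM and 348 to 361 RPM. In every group PYK10 held most of the root sum, and FDH and ATML1 together most of the shoot sum. The sums therefore mainly follow these genes. No marker of either list was at 0 in any library. The part of tissue makeup in the member changes was not tested.

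Glucose for 2 h changed the members of Col-0 in both directions. Of 40, 5 rose and 11 fell, where 35.7% of all genes rose and 20.6% fell. The rises were all in LHCB genes. The falls comprised 4 LHCB, 2 LHCA, 2 photosystem I and 3 photosystem II genes. The members' median log2 change was -0.18, beside 0.14 over all genes, and median-of-ratios scaling moved these to -0.38 and -0.02. Under that scaling 4 members rose and 13 fell.

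The 5 genes that rose were LHCB2.2, LHCB2.1, LHCB3, LHCB4.3 and LHCB6. LHCB2.2 (AT2G05070) went from 30.3, 39.5 and 32.9 RPM without glucose to 109, 87.6 and 70.1 RPM with glucose, a log2 change of 1.34 ± 0.30, adjusted p = 0.002. LHCB3 (AT5G54270) went from 160.4, 205 and 188 RPM to 425, 417 and 384 RPM, a change of 1.15 ± 0.23, adjusted p = 0.000943. In both genes every glucose library was higher than every library without glucose. LHCB2.1 rose by 1.18 ± 0.30, LHCB4.3 by 0.79 ± 0.15 and LHCB6 by 0.75 ± 0.22. The LHCB6 call was lost with median-of-ratios scaling and in edgeR.

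The largest fall was in LHCB1.4, from 1074, 2312 and 1471 RPM to 249.8, 274 and 206 RPM. LHCB1.4 fell by 2.67 ± 0.23 (adjusted p = 7.93e-07). LHCB2.3 went from 25.3, 50.9 and 39.5 RPM to 12.4, 14.4 and 12.5 RPM and fell by 1.43 ± 0.33. LHCB1.5 and LHCB1.3 fell by 1.02 ± 0.23 and 0.99 ± 0.22. The groups of LHCB1.4 and LHCB2.3 did not overlap. LHCII genes thus included both directions, with the ratio of LHCB1.3 to LHCB3 RPM at 55.8 ± 6.32 without glucose and 12.5 ± 0.373 with it. In LHCA, LHCA1 fell by 0.98 ± 0.15 and LHCA4 by 0.73 ± 0.17. Of photosystem I genes, PSAN, a lumenal subunit on the plastocyanin side, fell by 0.91 ± 0.09 and PSAE2 by 0.44 ± 0.12. Of photosystem II genes, PSBO2 fell by 0.89 ± 0.14, PSBR by 0.64 ± 0.14 and PSBW by 0.34 ± 0.09.

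In tor, 0 members rose and 14 fell with glucose, where 19.9% and 14.8% of all genes did. PSAD2, which with PSAD1 encodes the ferredoxin-docking subunit of photosystem I, stood at 124, 140.2 and 119 RPM without glucose and 26.3, 61.1 and 31.9 RPM with it. The groups were apart, and PSAD2 fell by 1.75 ± 0.22 (adjusted p = 5.63e-05). PSAD1 fell by 0.83 ± 0.17, LHCB2.3 by 1.2 ± 0.33, LHCB4.2 by 0.94 ± 0.25 and LHCB2.1 by 0.89 ± 0.30. LHCA3 and LHCA4 fell by 0.31 ± 0.11 and 0.51 ± 0.17, PSAN by 0.54 ± 0.09 and PSAK by 0.32 ± 0.11. PSBY, PSBX, PSBP1 and PSBW fell by 0.24 to 0.74, and LHCB1.5 fell by 0.71 ± 0.23. The tor library with glucose of replicate 2 was the highest of its group for many members, as for LHCB2.1 at 37.5, 116 and 60.4 RPM. Without that library, 26 members fell. The count was 6 to 9 without any 1 of replicates 1 and 2 without glucose or replicates 1 and 3 with it. With median-of-ratios scaling 8 fell, and in edgeR 7.

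The glucose effect itself differed between tor and Col-0 for 11 members. The difference, tor minus Col-0, was positive for 2 and negative for 9, where 6.21% and 11.2% of all genes were so. A positive difference for LHCB1.4, which fell in Col-0, marks a smaller change in tor. LHCB2.1, LHCB2.2 and LHCB3 showed differences of -2.07 ± 0.42, adjusted p = 0.0058, -2.01 ± 0.43, adjusted p = 0.00707 and -1.71 ± 0.33, adjusted p = 0.00433. LHCB3 with glucose was at 159, 372 and 177 RPM in tor, after 313, 321 and 338 RPM without it. These tor libraries overlapped, unlike those of Col-0. LHCB1.4 differed the other way by 2.18 ± 0.33, adjusted p = 0.00116, with 3162, 3857 and 2769 RPM in tor without glucose and 2061, 2140.5 and 2789 RPM with it. Its tor groups overlapped only through the lowest library without glucose and the highest with it. Median-of-ratios scaling called 2 positive and 4 negative differences, and edgeR 4 positive and 4 negative. The total was 5 to 7 on leaving out any 1 of 8 libraries: replicates 1 and 3 of Col-0 without glucose, all 3 of Col-0 with glucose, replicates 1 and 3 of tor without glucose and replicate 3 of tor with glucose.

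In Ler, 8 members fell and 0 rose with glucose, where 11.3% and 17.4% of all genes did. In gin2, 7 fell and 0 rose, where 8.73% and 18.7% did. LHCB1.4 went from 508, 595 and 729 RPM to 136, 103 and 108 RPM in Ler and fell by 2.38 ± 0.25 (adjusted p = 2.64e-08). In gin2 it went from 394, 227 and 251 RPM to 60.3, 49.1 and 87.1 RPM and fell by 2.13 ± 0.25 (adjusted p = 2.54e-07). The groups did not overlap in either line. LHCB1.1 fell by 1.55 ± 0.23 in Ler and by 2.18 ± 0.23 in gin2, and LHCB1.5 by 1.55 ± 0.27 and 1.57 ± 0.27. LHCB2.3 fell by 2.33 ± 0.26 and 1.2 ± 0.26, LHCA1 by 1.07 ± 0.25 and 1.17 ± 0.25, and PSAN by 0.97 ± 0.35 and 0.94 ± 0.35. PSAD2 fell by 0.56 ± 0.21 in Ler, and its value in gin2 was -0.14 ± 0.21, adjusted p = 0.683. No photosystem II gene was called in either. Without the Ler library without glucose of replicate 3, 16 members fell in Ler, PSBO2 (-0.71) and PSBX (-0.73) of photosystem II among them. Under median-of-ratios scaling 19 members fell in Ler and 18 in gin2.

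The glucose effect differed between gin2 and Ler for 0 members by limma, where 0.294% of all genes did. At an unadjusted p below 0.05, 2 members had a positive difference (gin2 minus Ler). No count test was run with gin2. Its values came out as whole reads over the genes also listed for Ler, while 17.6% to 18.6% of its values for genes not listed for Ler lay off that step. With median-of-ratios scaling 1 member was called, and with RPM over listed nuclear genes 2. Without the Ler library without glucose of replicate 3, 1 was called.

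Across the 4 genotypes, LHCA4, LHCB1.5, LHCB2.3 and PSAN fell with glucose in all of them, and LHCA1 and LHCB1.4 in all but tor. LHCA4 (AT3G47470) stood at 1338, 1204 and 794 RPM in Ler without glucose and 473, 488 and 275 RPM with it, and at 962, 926 and 918 and 349.6, 382 and 445 RPM in gin2. In neither did the groups overlap. LHCA4 fell by 1.44 ± 0.26 in Ler and 1.26 ± 0.26 in gin2. A further 3 members fell in 2 genotypes, 12 in 1 and 19 in none. How many of all genes fell in each number of genotypes is not given. The 5 rises were called in Col-0 and in none of the other 3 genotypes, though the difference was tested only against tor, where LHCB2.1, LHCB2.2, LHCB3 and LHCB6 differed and LHCB4.3 had a difference of -0.51 ± 0.21, adjusted p = 0.118. Of the 25 members that fell with ACC at 4 h, 9 also fell with glucose in Col-0, where 11 fell, and LHCB2.1, LHCB2.2 and LHCB6 rose. The ACC set holds 25 of the 40 members, and the same overlap over all genes is not given. No shared response is therefore read from this overlap.

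**Figure D3:**
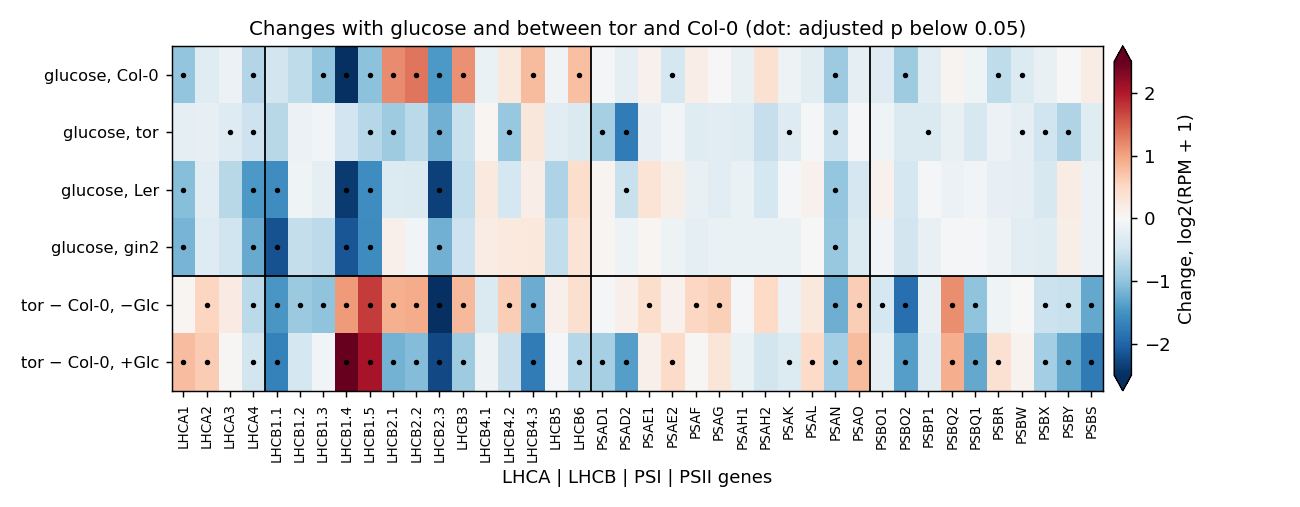
Log2 changes (colour scale) of the 40 members with glucose in Col-0, tor, Ler and gin2, and of tor against Col-0 without and with glucose; a dot marks a called value. LHCB1.4 is lower with glucose in Col-0 (-2.67), Ler (-2.38) and gin2 (-2.13), and higher in tor than in Col-0 with glucose (3.25).

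Against Col-0, the libraries labelled tor differed in both directions. Without glucose, 12 members were higher and 13 lower, where 40.3% and 15% of all genes were. With median-of-ratios scaling this was 3 higher and 16 lower, and in edgeR 2 and 17, so most of the higher calls depended on the scaling. The median over all genes was 0.24, beside 0.02 over members. With glucose, 9 members were higher and 17 lower, where 37.3% and 24.1% of all genes were, and median-of-ratios scaling gave 5 and 20. The median over all genes was 0.14 and that over members -0.30. Photosystem II genes had 1 higher and 6 lower of 10 without glucose, photosystem I genes 4 higher and 1 lower of 12. Under median-of-ratios scaling these counts were 1 and 7, and 0 and 2.

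LHCB1.5 was higher in tor, at 3558, 4226 and 3056 RPM against 728, 1585 and 1038 RPM in Col-0 without glucose, a difference of 1.75 ± 0.23, adjusted p = 3.6e-05. LHCB1.4 differed by 1.07 ± 0.23 without glucose and by 3.25 ± 0.23 with it, against 249.8, 274 and 206 RPM in Col-0 with glucose. The lower calls were led by LHCB2.3 at -2.49 ± 0.33 without glucose, with 5.58, 5.63 and 6.10 RPM in tor and 25.3, 50.9 and 39.5 RPM in Col-0. None of these groups overlapped, and the call of LHCB1.4 without glucose was lost in edgeR. PSBS stood at 569, 619 and 615 RPM in tor and 1499, 1457 and 1409 RPM in Col-0, a difference of -1.28 ± 0.17, adjusted p = 4.86e-05. PSBO2 differed by -1.89 ± 0.14, LHCB1.1 by -1.45 ± 0.43, LHCB4.3 by -1.24 ± 0.15 and PSAN by -1.22 ± 0.09. PSBQ2 was higher by 1.16 ± 0.08 and PSAO by 0.62 ± 0.11. LHCB2.1, LHCB2.2 and LHCB3 were higher without glucose by 0.89, 0.93 and 0.82, calls lost with median-of-ratios scaling and in edgeR, and with glucose they were lower, with differences of -1.18, -1.08 and -0.90. Of the members called in both conditions, 5 were higher in both, 10 lower in both and these 3 higher and then lower. The same overlaps over all genes are not given.

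The copies of single proteins shifted against one another. LHCB1.3 made up 75.0 ± 2.81% of the summed LHCB1 RPM in Col-0 without glucose and 41.5 ± 0.367% in tor. LHCB1.4 made up 11.4 ± 1.73% and 26.3 ± 0.322%, and LHCB1.5 7.87 ± 1.23% and 29.1 ± 0.234%. In none of these shares did the genotypes overlap. With glucose, the LHCB1.4 share was 3.79 ± 0.341% in Col-0, 23.9 ± 4.3% in tor, 2.93 ± 0.175% in Ler and 3.15 ± 0.392% in gin2. In mock seedlings at 2 h, which had been raised with glucose, it was 2.07 ± 0.348%. LHCB1.1 made up 11.5 ± 0.819% in those mock seedlings and 1.09 ± 0.195% in Col-0 raised without glucose, libraries of separate experiments that were not tested against each other. Reads shared between the copies could move these shares.

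**Figure D4:**
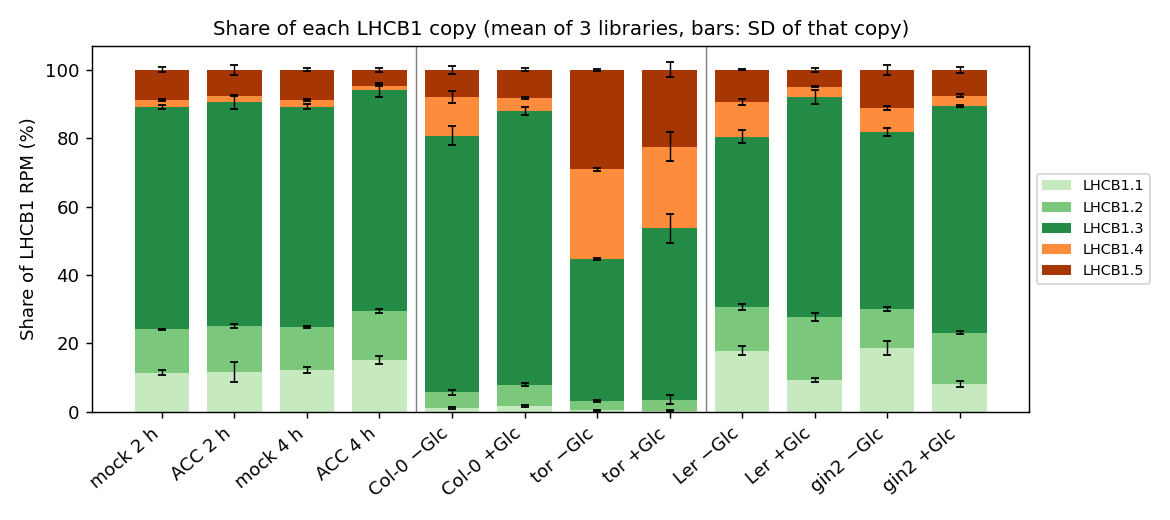
Share of the summed LHCB1 RPM (percent, vertical axis) held by each of the 5 LHCB1 copies in the 12 groups, as stacked means with SD over 3 libraries. LHCB1.3 holds 75.0% in Col-0 without glucose and 41.5% in tor, where LHCB1.4 holds 26.3% and LHCB1.5 holds 29.1%.

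The oxygen-evolving subunits also had unequal copies. The ratio of PSBO1 to PSBO2 RPM was 3.48, 3.50 and 3.36 in the Col-0 libraries without glucose and 9.54, 10.2 and 8.51 in those of tor. The tor libraries were all higher. The ratio of PSBQ1 to PSBQ2 was 3.81, 4.02 and 3.61 in Col-0 and 0.824, 0.832 and 0.896 in tor, all lower in tor. PSBQ1 was lower in tor, with a difference of -1.0 ± 0.18 and PSBQ2 higher by 1.16 ± 0.08, both called, and a ratio within a library does not depend on its scaling. The ratio of PSAD1 to PSAD2 was 5.29 ± 0.110 in tor without glucose and 10.2 ± 1.28 with it. That of LHCB4.1 to LHCB4.2 was 5.43 ± 0.550 and 11.2 ± 3.49 in the same groups. The PSAE1 to PSAE2 ratio was 2.28 ± 0.0163 in mock at 2 h and 1.1 ± 0.114 in Col-0 without glucose. These last groups are of separate experiments with different media and were not tested against each other.

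**Figure D5:**
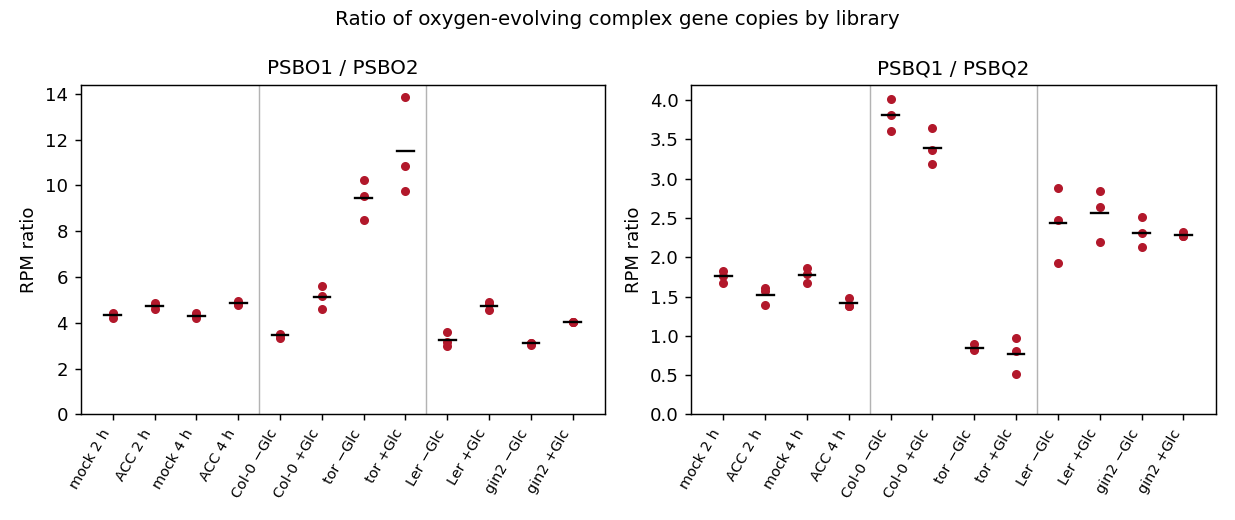
Ratio of PSBO1 to PSBO2 RPM and of PSBQ1 to PSBQ2 RPM (vertical axes) in the 12 groups; dots are libraries and bars are means of 3. The PSBO ratio lies near 3.45 in Col-0 and 9.43 in tor without glucose, and the PSBQ ratio near 3.81 and 0.850.

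Other photosynthesis genes were also counted in tor against Col-0. Of all genes, 40.3% were higher and 15% lower without glucose, and 37.3% and 24.1% with it. Of 23 genes for chlorophyll synthesis, 17 were lower and 0 higher than in Col-0 without glucose, and 22 were lower and 0 higher with glucose. HEMA1, the first committed enzyme of the pathway, differed by -1.41 ± 0.15 and -2.13 ± 0.15. Of 13 electron transport and ATP synthase genes, 11 and 12 were lower, with FD1 at -1.38 ± 0.14 and -2.59 ± 0.14. Of 12 rare antenna and related genes, 10 were lower in each, and of 11 targeting and assembly factors 6 and 8 were lower and 1 higher. The 8 photosystem genes of the chloroplast genome had 7 higher with glucose and 0 called without it. Their sum without glucose was 2836 to 7383 RPM in tor and 1294 to 3531 RPM in Col-0. With glucose it was 1382, 8867 and 11055 RPM in tor and 854 to 1687 RPM in Col-0. The first tor library thus lay within the Col-0 range. Chloroplast reads made up 0.490% to 3.71% of RPM in the tor libraries with glucose. Of 21 regulators, 3 and 5 were higher and 10 and 9 lower.

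The same lists were counted in the glucose comparisons. Of all genes, 35.7% rose and 20.6% fell with glucose in Col-0, and 19.9% and 14.8% in tor. The chlorophyll synthesis counts in Col-0 lay below these shares, and the lower count of electron transport lay near its share. In Col-0, chlorophyll synthesis had 4 higher and 1 lower of 23, electron transport 1 and 3 of 13, rare antenna genes 1 and 7 of 12, targeting and assembly factors 0 and 4 of 11, and regulators 1 and 9 of 21. In tor the counts were 0 and 12, 0 and 6, 1 and 4, 0 and 7, and 2 and 10. GLK1 rose with glucose in Col-0 by 1.83 ± 0.12, in Ler by 1.75 ± 0.21 and in gin2 by 1.24 ± 0.21, and in tor by 0.43 ± 0.12, adjusted p = 0.0157. GLK1 went from 66.6, 59.5 and 47.6 RPM to 212, 215 and 191 RPM in Col-0 and from 95.3, 94.6 and 90.7 RPM to 108, 139 and 134 RPM in tor. The groups were apart in both genotypes, and the difference in effect was -1.4 ± 0.17, adjusted p = 0.000361. GLK2 fell by 0.92 ± 0.15 in Col-0 and by 0.58 ± 0.15 in tor.

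Tissue markers were also counted in these groups. Of 9 root markers, 6 were higher and 0 lower in tor without glucose, where 40.3% and 15% of all genes were. Their summed levels were 2655 to 3287 RPM in tor and 1760.4 to 2556 RPM in Col-0. PYK10 alone was at 2425 to 3048 RPM in tor and 1602 to 2400 RPM in Col-0. With glucose 4 were higher and 2 lower, where 37.3% and 24.1% of all genes were. Glucose in Col-0 gave 4 higher and 1 lower, with a sum of 2534 to 2833 RPM, where 35.7% of all genes rose and 20.6% fell. Of 7 shoot epidermis and meristem markers, 2 were higher and 2 lower in tor without glucose, at sums of 545 to 558 RPM and 632 to 669 RPM in Col-0. The marker counts were not tested against the shares of all genes. The part of the markers in the member changes was not tested either.

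Against Ler, gin2 had 8 members higher and 4 lower without glucose, where 49.9% and 1.66% of all genes were, and 5 higher and 5 lower with glucose, where 57.1% and 1.61% were. Median-of-ratios scaling gave 1 higher and 24 lower without glucose and 1 and 22 with it, and RPM over listed nuclear genes gave 1 and 21, and 1 and 19. The shares of all genes above belong to the RPM fit, and none is given for these scalings. The median over all genes was 0.55 and 0.62, beside 0.07 and 0.20 over the members. Most member directions in this comparison therefore depended on the scaling. The count without glucose was 6 in all without gin2 replicate 1 and 3 without gin2 replicate 3, and that with glucose 17 without Ler replicate 2 and 6 without gin2 replicate 2. LHCB1.4 was at 394, 227 and 251 RPM in gin2 and 508, 595 and 729 RPM in Ler without glucose, a difference of -1.1 ± 0.25, adjusted p = 0.00154. Its groups did not overlap. LHCB4.3 was higher in gin2 by 1.16 ± 0.28 without glucose and 1.26 ± 0.28 with it. The ratio of photosystem II to photosystem I RPM, which needs no scaling, was 1.28, 1.25 and 1.16 in Ler and 1.69, 1.51 and 1.57 in gin2 without glucose. The ratio of antenna to photosystem RPM was 0.885, 1.02 and 1.21 in Ler and 0.741, 0.693 and 0.657 in gin2. In neither ratio did the genotypes overlap. Within these Ler libraries, both ratios ran in order of the RPM share on unlisted genes, 26.8%, 32.6% and 54.3%. Members also differed unevenly between them, with PSBR at 1513, 1526 and 1480 RPM and PSBO1 at 1547, 1567 and 854 RPM. A ratio does not remove such unevenness, and its link with the unlisted share was not tested. Of 7 shoot epidermis and meristem markers, 5 were higher and 0 lower in gin2 without glucose, with sums of 189.6 to 330.4 RPM in Ler and 456 to 467 RPM in gin2, and 6 were higher and 0 lower with glucose. Median-of-ratios scaling called 1 of them higher in each condition. Of 9 root markers, 0 were called without glucose, with sums of 795 to 1837 RPM in Ler and 1628 to 1809 RPM in gin2, and 1 was lower with glucose. That scaling called 7 and 6 of them lower. Their part in the member differences was not tested.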

How the data were processed

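mRNA of 36 libraries of whole seedlings was sequenced. TopHat and HTSeq are named in the submitters' processing notes, without versions. Genome build, strand setting and the handling of multiply matching reads are not given in the sources used here. RPM values (reads per 1000000 reads) per gene were deposited by the authors, with many genes left blank in the glucose-TOR and glucose-HXK1 columns. In the glucose-HXK1 columns the blanks were not only low genes. Chloroplast and mitochondrial genes held 0.0% of RPM there. The chloroplast gene psaA was blank there, and stood at 292 to 790 RPM in Col-0 without glucose. The members and lists were chosen with earlier results of these data known.

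For each experiment, genes reaching 1 RPM in 3 or more libraries entered the test (19442, 19336 and 17352 genes). limma 3.58.1 (R 4.3.3) fitted log2(RPM + 1) of the 12 libraries together, with its trend option. P-values were two-sided and adjusted by Benjamini-Hochberg over all genes tested. The fit was tested on simulated data. A log2 change on this scale understates the change of low genes.

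For the alternatives with edgeR 4.0.16 and DESeq2 1.42.0, whole reads were recovered from the RPM steps of the ethylene, glucose-TOR and Ler columns, where all values came out whole within 0.02 reads. In the gin2 columns this held over the genes also listed for Ler but not over the others, so gin2 had no count test. Further settings tried were median-of-ratios scaling, RPM over listed nuclear genes, a fit of the compared groups alone, a pseudocount of 0.25 RPM, no filter, a replicate block and leaving out each library. Shares of all genes given beside member counts are those of the main limma fit, also where counts under other settings follow. After the data had been seen, leaving out both Ler libraries numbered 3 was added.

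Named members are the called ones with the largest changes in each class, the uncalled ones that set the range of their class, all copies of a protein and the members called most often. GLK1, GLK2 and up to 3 called genes of each of 8 other lists were also eligible. For mock 4 h against mock 2 h, residuals of libraries with equal numbers correlated across genes at 0.595, 0.411 and 0.382, so the numbers may pair them. No other comparison had this in all pairs, and the labels do not state pairing. Each library's depth limits precision to counting error at best, and p-values measure the spread between libraries, which the submitters call biological replicates. RefSeq TAIR10.1 supplied transcript lengths and sequences for all 40 members.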

Additional observations from a re-analysis of the deposited data

Results flagged for a closer look

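The glucose effect differed between tor and Col-0, by a test of the difference itself in limma, for 11 members. The differences, tor minus Col-0 on the log2 scale, were -2.07 ± 0.42 for LHCB2.1, -2.01 ± 0.43 for LHCB2.2, -1.71 ± 0.33 for LHCB3, -1.2 ± 0.35 for LHCB4.2 and -1.11 ± 0.32 for LHCB6. In photosystem I they were -1.52 ± 0.31 for PSAD2, -0.79 ± 0.24 for PSAD1 and -0.96 ± 0.30 for PSAH2, and in photosystem II -0.73 ± 0.22 for PSBY. LHCB1.4 and LHCA1 differed in the other direction, by 2.18 ± 0.33 and 0.73 ± 0.21. Adjusted p-values from limma ranged from 0.00116 for LHCB1.4 to 0.0447 for PSAH2. With median-of-ratios scaling the calls of LHCA1, LHCB4.2, LHCB6, PSAD1, PSAH2 and PSBY were lost.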

How the results depend on the processing

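Of 154 called member values, 92 kept their direction and call under every alternative and 1, PSBY in gin2 against Ler, changed sign. Counts of called members that moved by over 1.5 times were, with the main count first, as follows. For ACC at 2 h (0), RPM over listed nuclear genes gave 2, the replicate block 4, edgeR 1 and DESeq2 4. For glucose in Col-0 (16), the fit to only the groups compared gave 25. For glucose in tor (14), median-of-ratios scaling gave 8, only the groups compared 7 and edgeR 7. For the difference of the glucose effect between tor and Col-0 (11), median-of-ratios scaling gave 6. For glucose in Ler (8), median-of-ratios scaling gave 19, RPM over listed nuclear genes 15, edgeR 15, DESeq2 20 and leaving out both Ler libraries numbered 3 gave 16. For glucose in gin2 (7), these were 18 with median-of-ratios scaling, 13 with RPM over listed nuclear genes, 20 with only the groups compared and 16 without both Ler libraries numbered 3. For the difference between gin2 and Ler (0), they were 1, 2 and, without those Ler libraries, 2. For gin2 against Ler without glucose (12), they were 25, 22 and, without those Ler libraries, 22. With glucose (10), they were 23, 20, 18 with only the groups compared and 17 with the replicate block. The cause was not tested.

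Leaving out each library in turn gave 0 to 2 called members for ACC at 2 h, 15 to 24 at 4 h, 0 to 11 for the change between them and 0 to 0 for the mock libraries. It gave 16 to 16 for glucose in Col-0, 6 to 26 in tor, 5 to 14 for their difference, 20 to 24 for tor against Col-0 without glucose and 23 to 29 with it. For Ler it gave 6 to 16, for gin2 6 to 7, for their difference 0 to 1, and for gin2 against Ler 3 to 16 without glucose and 6 to 17 with it.

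All values that changed sign with a call in either fit were in gin2 against Ler, and all but that of PSBY were positive and not called in the RPM fit and called lower in the alternative. edgeR on the recovered reads called 1564 genes higher and 1909 lower after 4 h of ACC, 5351 and 6100 with glucose in Col-0, 3644 and 3498 in tor and 3590 and 3578 in Ler, over all genes. Without glucose, median-of-ratios scaling gave -0.42 for LHCA1, -0.61 for LHCA3, -0.51 for PSAD1, -0.46 for PSAF, -0.55 for PSAH2, -0.57 for PSAO, -0.59 for PSBR and -0.00912 for PSBY. RPM over listed nuclear genes gave -0.45 for LHCA3, -0.35 for PSAD1, -0.39 for PSAH2 and -0.42 for PSAO, and leaving out both Ler libraries numbered 3 gave -0.34 for LHCA3. With glucose, median-of-ratios scaling gave -0.55 for LHCA1, -0.40 for LHCB4.2, -0.56 for PSAD1, -0.48 for PSAD2, -0.55 for PSAF, -0.57 for PSAO, -0.55 for PSBR and -0.42 for PSBW. RPM over listed nuclear genes gave -0.41 for LHCA1, -0.42 for PSAD1, -0.34 for PSAD2, -0.41 for PSAF and -0.43 for PSAO. With the replicate block 0 members were called between the mock libraries, as without it. Depth was lowest in the glucose-HXK1 experiment, where reads on unlisted genes also limit the scaling.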
